A study of Homo sapiens with 24 samples.

Results

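HepG2, an established human hepatoma cell line, was given the proteasome inhibitor bortezomib (Btz) together with 1 of 2 compounds that act in opposite ways on the same pathway, and the 2 co-treatments are compared here with each other. Of the 24 libraries of the series, the 8 compared are the 4 from cells given 50 nM bortezomib with 20 µM nelfinavir (Btz+Nelf) and the 4 from cells given 50 nM bortezomib with 50 nM ISRIB (Btz+ISRIB), each for 10 h. They were chosen by these labels alone, every gene of the count table entered, and no library from cells given bortezomib alone entered the contrast. Both groups carry bortezomib, so a difference between them is a difference between nelfinavir and ISRIB in its presence, and it does not say which of the 2 moved a gene. The other 16 libraries (4 each of DMSO vehicle, ISRIB, nelfinavir and bortezomib alone, at the same doses and time) entered the shared estimate of the spread, and the 4 Nelf and 4 ISRIB libraries give the same contrast without bortezomib. The labels give 4 numbered replicates per condition, all of this 1 cell line, and the study calls them biological. Neither says whether they are separate cultures, so the p-values below measure the spread between these libraries.

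When unfolded proteins collect in the endoplasmic reticulum (ER), or amino acids run short, kinases phosphorylate the initiation factor eIF2α. This slows translation in general and raises translation of the transcription factor ATF4, which turns on genes of amino acid supply, tRNA charging and stress signalling. Nelfinavir lets phosphorylated eIF2α collect by inhibiting its phosphatase cofactor CReP, whereas ISRIB keeps the guanine nucleotide exchange factor eIF2B active and so makes cells insensitive to that phosphorylation. Proteasome inhibition also leaves misfolded protein in the cytosol, where the factor HSF1 turns on heat shock chaperones.

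Total counts ran from 5417434 to 6173764 in the Btz+Nelf libraries and from 5154533 to 5886463 in the Btz+ISRIB libraries, and 12685 of the 18915 genes of the table had enough counts to be tested. All 9 hepatocyte and hepatoma markers looked at were tested, with 39922 and 52525 counts of ALB, serum albumin, over the 4 Btz+Nelf and the 4 Btz+ISRIB libraries. The markers of leukocytes and fibroblasts in the table (CD14, CD79A, COL1A1 and PDGFRB) had between 0 and 9 counts over either group. In these bulk libraries fewer cells of a kind and less RNA per cell cannot be told apart. Levels are given as CPM, counts scaled to a common library size with TMM factors, which correct for a few genes that take many of the counts. They are listed in the order of replicates 1 to 4, and can be compared between libraries but not between genes.

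Of the 8 libraries, 3 stood apart from the rest of their own groups. In Btz+ISRIB 3 and in Btz+Nelf 3 and 4, TXN, the redox protein thioredoxin, a gene singled out after its values were seen, was at 63.6, 58.7 and 70.2 CPM, against 272 to 394 CPM in the other 5. The axis on which they lay took 35.0% of the variance within conditions, and it holds 2 of the 4 Btz+Nelf libraries and 1 of the 4 Btz+ISRIB libraries. Across 5909 genes, which are not independent replicates, its weights had a Pearson r of 0.221 with the log2 fold change of the contrast, so that the axis and the contrast overlap in part. Values without these 3 libraries are given beside the counts and calls that they move most. That run compares Btz+Nelf 1 and 2 with Btz+ISRIB 1, 2 and 4. Fewer libraries can also lose a call, so calls lost there are not credited to the 3 libraries alone.

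With bortezomib present, 1669 genes were higher and 1429 were lower in the nelfinavir co-treatment than in the ISRIB co-treatment (quasi-likelihood test in edgeR, Benjamini-Hochberg adjusted p below 0.05, called in what follows). Together these were 24.4% of the genes tested, with 13.2% called higher and 11.3% called lower. More than 2-fold, 225 genes were higher (1.77%) and 402 were lower (3.17%). Without overlap between the 4 and 4 libraries, 1350 genes lay higher (10.6%) and 970 lower (7.65%). The median log2 fold change over all genes tested was -0.025. Of the 3098 genes called, 1737 were also called in a model of the 8 libraries alone, which called 1740 in all (985 higher and 755 lower). Without the 3 libraries that stood apart, 2297 genes were called, 1977 of them the same genes. Without bortezomib, in Nelf minus ISRIB, 1215 genes were higher and 994 lower by the same test, and those past 2-fold numbered 261 (2.06%) and 155 (1.22%). The difference between the 2 contrasts, which share no library, was called for 1905 genes, 235 (1.85%) by more than 2-fold toward a higher and 400 (3.15%) toward a lower value with bortezomib.

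**Figure D1:**
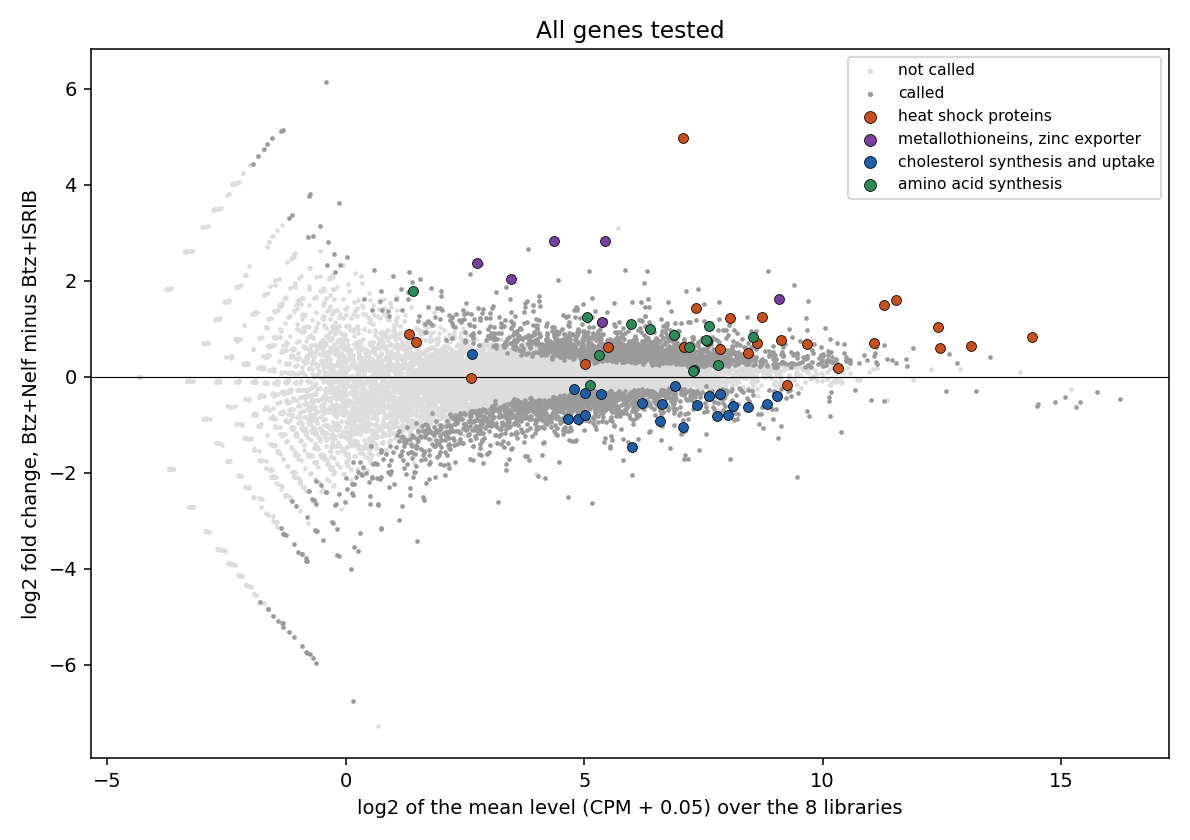
Log2 fold change (Btz+Nelf minus Btz+ISRIB) of every gene tested against the log2 of its mean level over the 8 libraries. Dark grey points are called genes and coloured points are the members of 4 gene lists: the 22 cholesterol genes lie on the lower side but for 1, and the metallothioneins and HSPA6, at 4.96, lie high.

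Heat shock proteins of the cytosol and mitochondria were higher with nelfinavir. Of 24 members tested, 18 were called higher and none lower, 7 by more than 2-fold, with a median log2 fold change of 0.70, whereas 13.2% of all genes were called higher and the median of all genes was -0.025. The count was 18 as well in the model of the 8 libraries alone and without the 3 libraries apart. HSPA6, a stress-inducible HSP70 (chromosome 1, 161494330 to 161496684, plus strand, GRCh37), differed most. It was at 8.46, 11.5, 6.53 and 6.42 CPM in the Btz+ISRIB libraries and at 221, 287, 348 and 179 CPM in the Btz+Nelf libraries (log2 fold change 4.96 ± 0.24 (SE), adjusted p = 2.31e-14). Every Btz+Nelf library lay far above every Btz+ISRIB library, and the lowest of the 4 was still over 10 times the highest of the other group. Its counts, summed over 4 libraries, were 5034 in Btz+Nelf, 150 in Btz+ISRIB, 184 in bortezomib alone, 2 in ISRIB and 0 in nelfinavir and in vehicle. The last bases of its transcript are shared with HSPA7, so reads of the 2 genes may not be told apart.

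DNAJB1 (chromosome 19, 14625581 to 14671203, minus strand), an HSP40 that hands clients to HSP70, was at 1232, 1337, 1455 and 1184 CPM in Btz+ISRIB and at 3186, 3401, 4397 and 3682 CPM in Btz+Nelf (log2 fold change 1.49 ± 0.09 (SE), adjusted p = 1.49e-14). HSPH1 (chromosome 13, 31709110 to 31736525, minus strand), an HSP70 nucleotide exchange factor of the HSP110 class, had 1675, 1592, 1404 and 1252 CPM against 4195, 4486, 5336 and 3861 CPM (log2 fold change 1.59 ± 0.12 (SE), adjusted p = 2.85e-12). HSPA6, DNAJB1 and HSPH1 were picked by a rule that asked for no overlap between the groups, so their lack of overlap was fixed by that choice. CHORDC1 (chromosome 11, 89933597 to 89956245, minus strand), a cochaperone of HSP90, was at 174, 158, 138 and 167 CPM and 388, 409, 372 and 325 CPM (log2 fold change 1.23 ± 0.10 (SE), adjusted p = 6.71e-11). Its Btz+Nelf libraries were all above its Btz+ISRIB libraries. Exons of DNAJB1 overlap those of TECR on the other strand, and the strand setting of the counting is not given, so reads of these neighbours may be mixed.

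The other members of the list had smaller values. HSP90AA1, the inducible HSP90, had mean levels of 15480 ± 1010 CPM in Btz+ISRIB and 27660 ± 3920 CPM in Btz+Nelf (SD, n = 4 each), a log2 fold change of 0.84 ± 0.08 (SE). HSPD1, the mitochondrial chaperonin HSP60, rose from 3563 ± 377 CPM to 7309 ± 1260 CPM (log2 fold change 1.04 ± 0.10 (SE), adjusted p = 2.52e-09). Its cochaperonin HSPE1, which is transcribed from the same promoter region in the other direction, was at 1201 ± 89.8 and 1354 ± 86.2 CPM and was not called (log2 fold change 0.17 ± 0.08 (SE), adjusted p = 0.126). HSPA4L and BAG3, which exchange nucleotide on HSP70, had log2 fold changes of 1.44 ± 0.15 and 1.24 ± 0.20. HSPA1A and HSPA1B, the near-identical inducible HSP70 pair, had 0.60 ± 0.11 and 0.70 ± 0.10, and their reads may be split between them. HSPB1, a small heat shock protein, was at 673, 656, 652 and 507 CPM and 900, 867, 1295 and 946 CPM (log2 fold change 0.69 ± 0.13 (SE), adjusted p = 1.67e-04). At the other end of the list stood HSPA8, the constitutive HSP70, at 776, 684, 353 and 762 CPM and 752, 732, 349.7 and 446 CPM with -0.18 ± 0.19 (adjusted p = 0.532). Its groups overlapped and it was not called. ZFAND2A (AIRAP, chromosome 7, 1191707 to 1200395, minus strand), a proteasome-associated zinc finger protein induced by arsenite, is not on the list, and was at 371, 413, 470.4 and 396 CPM and 1009, 1180, 1573 and 1159 CPM (log2 fold change 1.58 ± 0.11 (SE), adjusted p = 5.25e-13).

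The 250 bases before the start site of HSPA6 and CHORDC1 are shown because these are the most changed list members that hold the heat shock element, searched on both strands as GAA, TTC and GAA with NN, any 2 bases, between them. They are from RefSeq on GRCh38.p14, 5′ to 3′ on the strand of the gene, with the matches in capitals.
HSPA6 (chr1:161524290-161524539, plus strand): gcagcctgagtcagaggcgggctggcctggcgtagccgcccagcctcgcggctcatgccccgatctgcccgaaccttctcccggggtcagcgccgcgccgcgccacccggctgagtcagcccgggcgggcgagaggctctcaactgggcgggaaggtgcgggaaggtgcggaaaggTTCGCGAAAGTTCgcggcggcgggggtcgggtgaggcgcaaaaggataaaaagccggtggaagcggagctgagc
CHORDC1 (chr11:90223050-90223299, minus strand): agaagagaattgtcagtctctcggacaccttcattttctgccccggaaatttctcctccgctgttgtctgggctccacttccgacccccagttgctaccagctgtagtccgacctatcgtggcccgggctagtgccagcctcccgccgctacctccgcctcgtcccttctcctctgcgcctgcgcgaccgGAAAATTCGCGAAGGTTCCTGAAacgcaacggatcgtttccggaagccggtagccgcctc
The HSPA6 match starts 74 bases before the start site. CHORDC1 holds 3 overlapping matches that start from 60 to 50 bases before it. Over windows from 250 bases before to 50 bases after the start, the element was found in 166 of 27305 genes (0.608%) and in 8 of the 23 heat shock list members with a window (34.8%). These were HSPA6, HSPA8, HSP90AA1, HSP90AB1, DNAJA1, DNAJB6, HSPD1 and CHORDC1, so the not-called HSPA8 held the letters as well.

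Without bortezomib the same 2 compounds gave another order. In Nelf minus ISRIB, 1 of the 24 heat shock members was called higher and 13 were called lower, where 9.58% and 7.84% of all genes were called higher and lower. The difference of the 2 contrasts was called for 17 members, all toward a higher value with bortezomib, against 7.40% of all genes. DNAJB1 was at 156, 159.8, 177 and 161 CPM in ISRIB and 125, 112, 125 and 120.2 CPM in Nelf (log2 fold change -0.44 ± 0.09 (SE), adjusted p = 3.38e-04), and its 2 contrasts differed by 1.93 ± 0.12 (SE), adjusted p = 1.49e-13. HSPH1 and CHORDC1 differed by 2.19 and 2.004 between the contrasts on the log2 scale, with adjusted p = 8.52e-12 and 9.42e-12. Each of the 3 was lower in Nelf than in ISRIB and higher in Btz+Nelf than in Btz+ISRIB. For HSPA6 no fold is given without bortezomib, since ISRIB had 2 counts and Nelf 0.

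**Figure D2:**
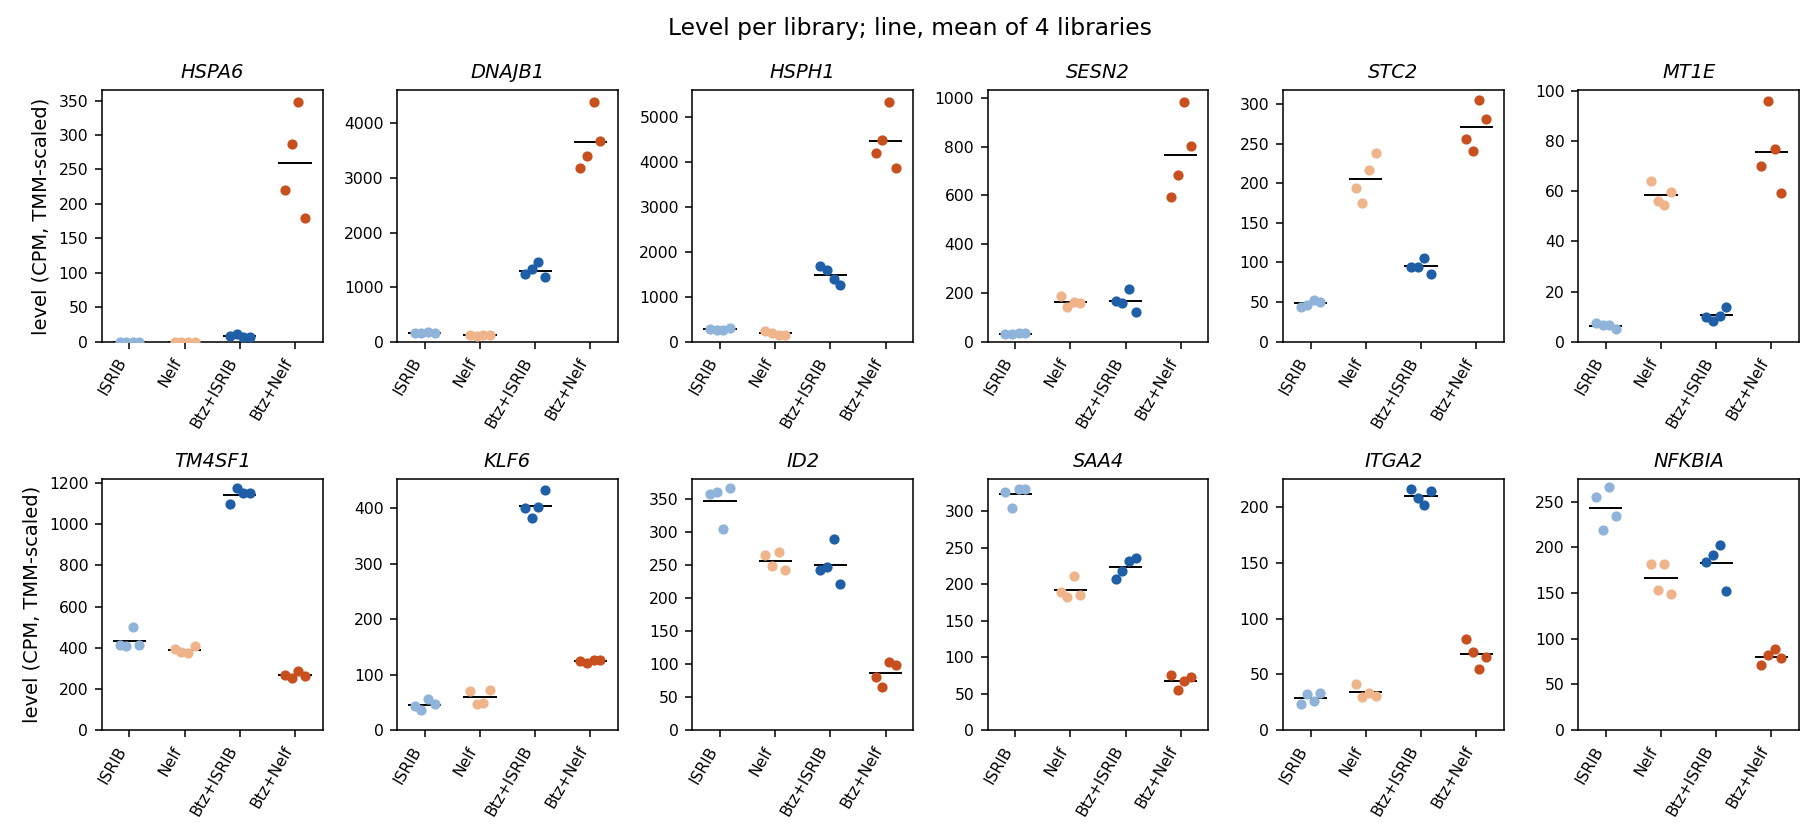
Level in CPM of 12 genes in each of the 4 libraries of ISRIB, Nelf, Btz+ISRIB and Btz+Nelf, with a line at the group mean. In the upper row the Btz+Nelf libraries lie above the Btz+ISRIB libraries, as for HSPA6 at means of 259 against 8.23 CPM, and in the lower row they lie below, as for TM4SF1 at 268 against 1144 CPM.

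Genes of amino acid supply, which ATF4 is known to drive, were higher with nelfinavir. Of 15 genes of amino acid synthesis and one-carbon metabolism, 11 were called higher and none lower (median log2 fold change 0.76), and of 11 amino acid transporters, 7 were called higher and none lower (0.45). Over all genes, 13.2% were called higher. In the model of the 8 libraries alone these counts were 10 and 6. SLC3A2 (chromosome 11, 62623476 to 62656352, plus strand), the heavy chain that carries several amino acid exchangers to the surface, was at 487, 483, 429 and 522 CPM in Btz+ISRIB and 1154, 1262, 1100 and 991 CPM in Btz+Nelf (log2 fold change 1.23 ± 0.08 (SE), adjusted p = 5.28e-13). ASNS (chromosome 7, 97480989 to 97501854, minus strand), asparagine synthetase, had 124, 124, 144 and 119 CPM and 246, 266, 315 and 238 CPM (log2 fold change 1.06 ± 0.11 (SE), adjusted p = 4.12e-09). The groups of both genes did not overlap, which for SLC3A2 the rule that picked it had asked for. PHGDH and PSPH, which open and close the serine pathway, had log2 fold changes of 1.00 ± 0.11 and 1.11 ± 0.10, while PSAT1, the enzyme between them, was not called (log2 fold change 0.25 ± 0.14 (SE), adjusted p = 0.194). MTHFD2, the mitochondrial folate enzyme, rose from 266 ± 27 CPM to 475 ± 55.1 CPM, and CTH, which makes cysteine, from 19.9 ± 4.4 CPM to 47 ± 11.6 CPM. The largest value of the synthesis list was that of ALDH1L2, a mitochondrial folate dehydrogenase at 1.15 and 4.09 CPM (log2 fold change 1.797 ± 0.55 (SE), adjusted p = 0.0152), and the smallest that of ALDH18A1, which makes proline precursors (log2 fold change -0.18 ± 0.17 (SE), adjusted p = 0.476). Among the transporters, the glycine carrier SLC6A9 had the largest value (1.37 ± 0.23), SLC7A1, a carrier of basic amino acids, had 0.80 ± 0.09, and SLC36A1, a lysosomal carrier, the smallest (-0.18 ± 0.21, adjusted p = 0.572).

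The cytosolic tRNA synthetases, which load tRNAs with amino acids, were called higher in 13 of 20 cases and lower in none, with a median of 0.335. Of all genes, 13.2% were called higher. In the model of the 8 libraries alone, and also without the 3 libraries apart, 8 were called higher. TARS, for threonine, was at 211, 189, 174 and 190.3 CPM and 391, 370.4, 413 and 322 CPM (log2 fold change 0.97 ± 0.08 (SE), adjusted p = 1.68e-10). GARS, for glycine, had 239, 263, 237 and 238 CPM and 502, 497, 461 and 447 CPM, with 0.96 ± 0.07 on the log2 scale. Both lay fully apart between the groups. CARS, for cysteine, had 0.83 ± 0.10, and RARS, for arginine, the lowest value of the list, -0.12 ± 0.12 (adjusted p = 0.516).

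The 250 bases before the start sites of ASNS and ATF3 are shown with matches to the C/EBP-ATF composite element TGATGNAA in capitals, again from RefSeq on GRCh38.p14 and on the strand of the gene.
ASNS (chr7:97872409-97872658, minus strand): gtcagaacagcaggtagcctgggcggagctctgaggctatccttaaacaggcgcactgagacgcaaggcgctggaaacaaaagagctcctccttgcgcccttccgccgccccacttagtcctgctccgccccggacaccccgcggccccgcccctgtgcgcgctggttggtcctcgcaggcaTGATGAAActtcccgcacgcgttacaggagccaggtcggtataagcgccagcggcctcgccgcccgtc
ATF3 (chr1:212565157-212565406, plus strand): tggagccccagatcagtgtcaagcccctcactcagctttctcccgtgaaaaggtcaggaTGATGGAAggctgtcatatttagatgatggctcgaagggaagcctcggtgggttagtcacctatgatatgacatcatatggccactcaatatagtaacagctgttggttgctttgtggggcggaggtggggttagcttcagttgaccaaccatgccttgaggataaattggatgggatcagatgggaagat
The matches start 68 and 191 bases before the start site. Both genes have 2 start sites in the table, 1 of which holds the match. On either strand and from 250 bases before to 50 bases after a start, these letters were found in 1217 of 27305 genes (4.46%). They were found in 6 of 13 tRNA synthetases, 5 of 10 amino acid transporters, 4 of 10 synthesis genes and 3 of 9 ATF and C/EBP factors with a window, in none of the 7 growth brakes and stress signals with a window, and in 1 of 23 heat shock members, HSPA4L.

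Transcription factors of the pathway were higher as well. Of 12 ATF and C/EBP factors and cofactors, 7 were called higher and 1 lower, 4 of them higher by more than 2-fold (median 0.91). Over all genes these shares were 13.2%, 11.3% and 1.77%. ATF4 itself (chromosome 22, 39915700 to 39918688, plus strand) was at 529.8, 565, 646 and 449 CPM in Btz+ISRIB and 873, 922, 1410 and 1105 CPM in Btz+Nelf (log2 fold change 0.98 ± 0.12 (SE), adjusted p = 9.15e-08). Its control is known to be mainly at translation, which RNA levels do not show, and 2 pseudogenes share its last bases. ATF3 (chromosome 1, 212738676 to 212794119, plus strand), a stress-induced repressor, had 40.7, 36.2, 37.3 and 32.1 CPM and 109, 116, 106 and 104 CPM (log2 fold change 1.57 ± 0.13 (SE), adjusted p = 2.68e-11). TRIB3, the pseudokinase that restrains ATF4, had 198, 215, 208 and 189.8 CPM and 448, 437, 577 and 458 CPM (log2 fold change 1.24 ± 0.10 (SE), adjusted p = 6.01e-11). In each of these 3 genes every Btz+Nelf library was above every Btz+ISRIB library. NUPR1, a small stress-induced chromatin protein, had 1.47 ± 0.18. JDP2, at 2.76 and 5.44 CPM, was not called (log2 fold change 0.97 ± 0.37 (SE), adjusted p = 0.0535), though its groups did not overlap, and it was called in 7 of the other settings tried. The 1 member called lower was TRIB1, a relative of TRIB3 that directs C/EBPα to degradation, at 302, 300.3, 303 and 281 CPM and 173, 168, 218 and 180 CPM (log2 fold change -0.68 ± 0.10 (SE), adjusted p = 3.05e-06).

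Among the 14 genes of the eIF2 system itself, 3 were called higher and 1 lower, where 13.2% and 11.3% of all genes were, so no change of the list as a whole is read from this count. PPP1R15A (chromosome 19, 49375469 to 49379316, plus strand), which encodes the stress-induced eIF2α phosphatase cofactor GADD34, was at 116, 119.8, 101 and 123 CPM and 334, 359.9, 342 and 318 CPM (log2 fold change 1.56 ± 0.11 (SE), adjusted p = 2.50e-12), with no overlap, as the rule that picked PPP1R15A had asked. Its constitutive partner PPP1R15B, which encodes CReP, had 48.5 ± 8.12 CPM in Btz+Nelf and 36.8 ± 9.6 CPM in Btz+ISRIB and was not called (log2 fold change 0.40 ± 0.17 (SE), adjusted p = 0.0779). EIF2S2, the β subunit of eIF2, had 0.69 ± 0.08 (adjusted p = 8.28e-08). Of the kinases, EIF2AK1, which senses haem shortage and mitochondrial stress, was lower (log2 fold change -0.30 ± 0.08 (SE), adjusted p = 0.00435), a call lost without the 3 libraries apart (adjusted p = 0.0516), and EIF2AK3, the ER kinase PERK, was not called (log2 fold change 0.31 ± 0.14 (SE), adjusted p = 0.0977). EIF2B1, the α subunit of the ISRIB target eIF2B, had the lowest value (-0.43 ± 0.21, adjusted p = 0.129).

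Growth brakes and secreted stress signals were called higher in 7 of 10 members tested and lower in none (median 0.67), where 13.2% of all genes were called higher. In the model of the 8 libraries alone 5 were called higher. SESN2 (chromosome 1, 28586029 to 28609002, plus strand), sestrin 2, a brake on mTORC1, had the largest difference. It was at 166, 160, 215 and 123 CPM in Btz+ISRIB and 593, 684, 984 and 801 CPM in Btz+Nelf (log2 fold change 2.204 ± 0.13 (SE), adjusted p = 3.03e-14). STC2 (chromosome 5, 172741726 to 172755450, minus strand), the secreted glycoprotein stanniocalcin 2, was at 94.6, 94.9, 106 and 84.9 CPM and 256, 240.2, 305 and 282 CPM (log2 fold change 1.51 ± 0.10 (SE), adjusted p = 5.25e-13). Neither gene had overlapping groups, as the rule that picked them had asked. TXNIP, an inhibitor of thioredoxin, had 0.90 ± 0.15. DDIT4, the mTORC1 inhibitor REDD1, was at 113 ± 5.39 CPM and 174 ± 10.3 CPM, a log2 fold change of 0.62 ± 0.09. GDF15, a secreted stress hormone, stood at 4655 ± 501 and 5242 ± 221 CPM and was not called (log2 fold change 0.17 ± 0.13 (SE), adjusted p = 0.342), and EIF4EBP1, the translation repressor 4E-BP1, had 0.06 ± 0.17 (adjusted p = 0.832). JMY (chromosome 5, 78531954 to 78623034, plus strand), a p53 cofactor that also nucleates actin, is on no list, and was at 50.5, 55.1, 66.96 and 47.1 CPM and 136, 160.1, 191 and 162 CPM (log2 fold change 1.56 ± 0.11 (SE), adjusted p = 1.67e-12).

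Without bortezomib the amino acid, tRNA synthetase and stress signal genes also differed between nelfinavir and ISRIB, most of them by more. In Nelf minus ISRIB, 14 of 15 synthesis genes, 10 of 11 transporters, 12 of 20 tRNA synthetases, 8 of 12 factors and 8 of 10 stress signals were called higher, where 9.58% of all genes were. Called lower were 2 tRNA synthetases and no member of the other lists named here, where 7.84% of all genes were. In the same order of lists, the difference between the contrasts was called toward a smaller value with bortezomib in 10, 7, 8, 9 and 7 members, against 7.62% of all genes. It was called toward a larger one in 0, 0, 2, 0 and 1, against 7.4%. ASNS was at 17.4, 14.2, 20.6 and 16.1 CPM in ISRIB and 268, 226, 245 and 248 CPM in Nelf (log2 fold change 3.85 ± 0.12 (SE), adjusted p = 2.70e-22), and its contrasts differed by -2.797 ± 0.16 (SE), adjusted p = 8.70e-15. SLC7A11, the cystine carrier xCT, went from 23.6 ± 1.68 CPM to 280.5 ± 15 CPM without bortezomib (log2 fold change 3.57), while with it both co-treatments were high, at 390, 376, 332 and 383 and 504, 485, 342 and 421 CPM (log2 fold change 0.24 ± 0.09 (SE), adjusted p = 0.0514). It missed the threshold narrowly and passed it in 14 of the other settings tried. The contrasts of DDIT4 and of INHBE, a secreted activin subunit, differed by -2.23 and -2.11. INHBE itself, at 70.1, 66.4, 80.6 and 68.1 CPM in Btz+ISRIB and 101, 83.3, 97.5 and 86.9 CPM in Btz+Nelf (0.37 ± 0.10), was not called in the model of the 8 libraries alone (adjusted p = 0.0582). SESN2, PPP1R15A and SLC3A2 had similar values in both contrasts, with differences of -0.12, -0.04 and 0.02 that were not called. Levels with bortezomib alone were 146 CPM for ASNS and 432 CPM for SLC7A11, given as values with no test.

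**Figure D3:**
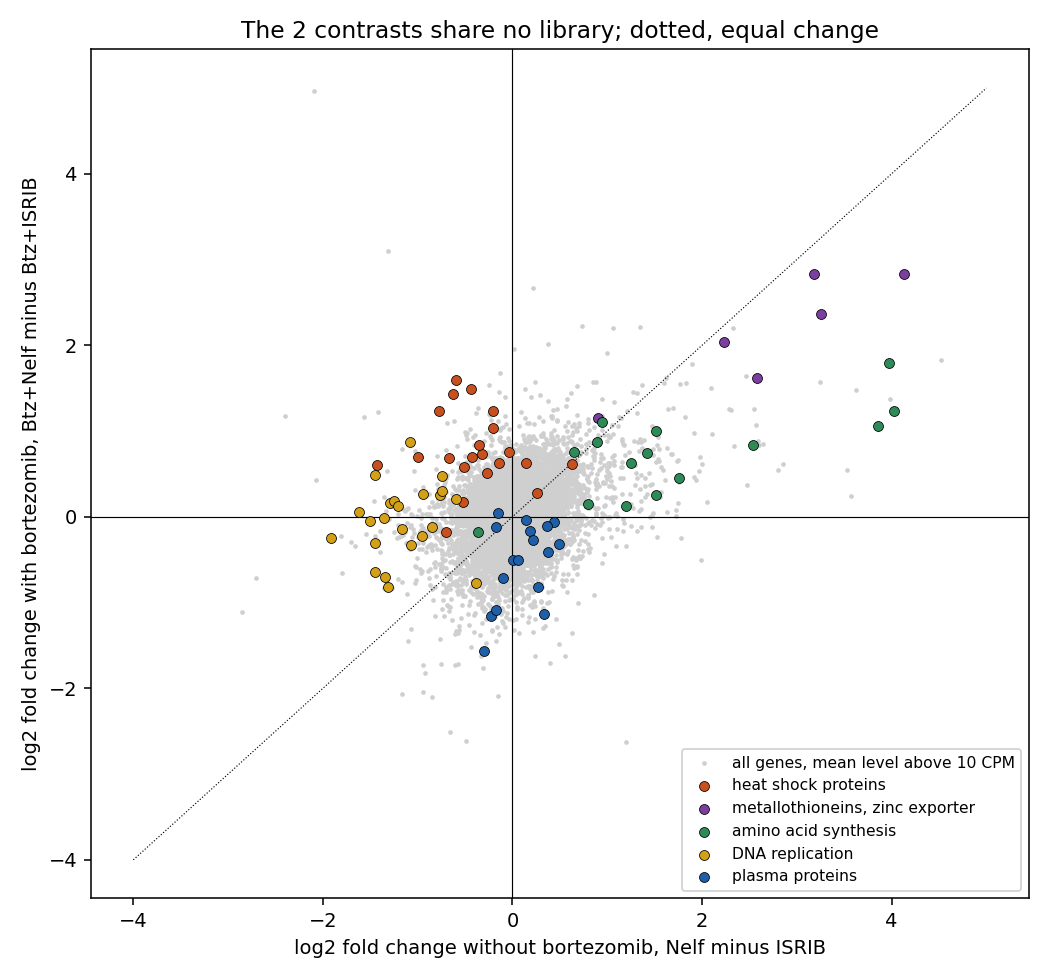
Log2 fold change with bortezomib (Btz+Nelf minus Btz+ISRIB) against that without (Nelf minus ISRIB) for genes with a mean level above 10 CPM (grey) and for 5 gene lists, without members under 1 CPM in both Nelf and ISRIB. Most heat shock members lie above the dotted line of equal change, most amino acid synthesis genes below it, DNA replication genes to the left near 0 on the vertical axis, and most plasma proteins below 0 on that axis.

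All 10 genes of ER stress apoptosis that the study names were called higher with nelfinavir, 6 of them by more than 2-fold (median 1.16). Over all genes these shares were 13.2% and 1.77%. The study picked them with these same samples in view, so their direction is not independent evidence. PMAIP1 (NOXA), a BH3-only protein that disables MCL1, was at 4.67, 4.82, 8.21 and 3.21 CPM in Btz+ISRIB and 16.5, 17.3, 16.3 and 15.2 CPM in Btz+Nelf (log2 fold change 1.63 ± 0.30 (SE), adjusted p = 1.19e-04). BBC3 (PUMA), also BH3-only, was at 27.4, 49.6, 57.7 and 41.96 CPM and 91.3, 102, 156 and 134 CPM (log2 fold change 1.45 ± 0.17 (SE), adjusted p = 4.29e-08). BCL2L11 (BIM) was at 19.6, 19.3, 18.1 and 21.2 CPM and 47.98, 42.7, 37.9 and 27.4 CPM (log2 fold change 0.99 ± 0.17 (SE), adjusted p = 2.81e-05). All 3 were apart without overlap. DDIT3 (CHOP), the stress-induced C/EBP factor, was at 70.1, 58.6, 78.3 and 66.4 CPM and 132, 119, 167 and 156 CPM (log2 fold change 1.07 ± 0.12 (SE), adjusted p = 1.95e-08), but its exons overlap MARS on the other strand, which was higher too. ITPR1, the ER calcium channel, was at 3.63 and 9.94 CPM (1.44 ± 0.27), CEBPB at 76.6 and 138 CPM (0.85 ± 0.18) and ERN1 (IRE1) at 20.3 and 36.4 CPM (0.83 ± 0.20). Only ERN1 of the 10 had overlapping groups.

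Over the wider set of 20 genes of the BCL2 family and death receptors, 6 were called higher and 3 lower, where 13.2% and 11.3% of all genes were. The lower count is near that share, and no lower change of the list as a whole is read from it. The lower calls were 1 without the 3 libraries apart, and 1 or 2 with any 1 of the 8 libraries left out. Runs with 1 library left out filtered and scaled the genes anew, and all of them called fewer genes lower (1041 to 1282, against 1429). The lost calls are thus not credited to single libraries. TNFRSF10B, the death receptor DR5, had 0.46 ± 0.09, and CFLAR, which restrains caspase 8 at that receptor, had 0.56 ± 0.11. CASP8 itself was lower, at 146, 126, 84.4 and 173 CPM in Btz+ISRIB and 75.5, 95.8, 33.01 and 56.7 CPM in Btz+Nelf (log2 fold change -1.02 ± 0.20 (SE), adjusted p = 1.80e-04), with overlap between the groups. HRK, the largest value of the list, was at 0.275 and 0.884 CPM and was not called (log2 fold change 1.64 ± 0.98 (SE), adjusted p = 0.233). BCL2L11 differed between the contrasts (1.198 ± 0.24 (SE), adjusted p = 5.08e-04): without bortezomib it was at 13.2 ± 1.43 CPM in ISRIB and 11.5 ± 1.34 CPM in Nelf.

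Genes of the ER itself were called in both directions, where 13.2% of all genes were called higher and 11.3% lower. Among 23 chaperones and folding enzymes, 6 were called higher and 4 lower (median 0.10), and among 17 genes of ER-associated degradation 3 and 2. Of 21 genes of translocation and N-glycosylation 4 and 0 were called, of 15 of ER to Golgi transport 5 and 2, and of 11 sensors 3 and 0. Of the translocation genes 6 were called higher without the 3 libraries apart. No member of these lists was called by more than 2-fold. HSPA5 (BiP), the main ER HSP70, was at 9768, 10210, 11310 and 8802 CPM in Btz+ISRIB and 11480, 12300, 16940 and 12950 CPM in Btz+Nelf (log2 fold change 0.42 ± 0.10 (SE), adjusted p = 0.00153), and at 2134 CPM with bortezomib alone. Its partner HYOU1 had 0.49 ± 0.11, FKBP14, a collagen foldase, 0.66 ± 0.11, and ERO1LB, an ER oxidase, the largest value, 0.88 ± 0.20. On the other side, PDIA4, a disulfide isomerase, was at 288, 303, 212 and 342 CPM and 194, 219, 122 and 148 CPM (log2 fold change -0.75 ± 0.13 (SE), adjusted p = 8.31e-05), with overlap between the groups. The chaperone list had 1 lower call in the model of the 8 libraries alone, and as few as 1 without Btz+Nelf 4 or without Btz+ISRIB 2, in place of 4. HERPUD1, a membrane factor of ER-associated degradation, had 0.63 ± 0.19, a call lost without Btz+Nelf 2 (0.425, adjusted p = 0.071) and in the model of the 8 libraries alone (0.603, adjusted p = 0.0973), where the list had 1 higher call in place of 3, and the mannosidase-related EDEM3 -0.74 ± 0.15, these 2 being the ends of that list. UBE2J1, its ubiquitin-conjugating enzyme, had 0.54 ± 0.13. SEC63 and SEC61G marked the ends of the translocation list (0.49 ± 0.08, called, and -0.37 ± 0.29, not called), and SEC24D, a COPII coat subunit, and KDELR3, a retrieval receptor, those of the transport list (0.77 ± 0.15 and -0.80 ± 0.18, both called). XBP1 had 0.50 ± 0.11 and ATF6 was not called (log2 fold change 0.27 ± 0.12 (SE), adjusted p = 0.101), nor was ATF6B, at the low end (-0.47 ± 0.25).

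The proteasome, the target of bortezomib, had 3 of 31 subunits called higher and 3 lower and a median of 0.01, shares near the 13.2% and 11.3% of all genes. Without the 3 libraries apart these counts were 2 and 1. PSMD7 and PSMD14, subunits of the 19S lid, had 0.46 ± 0.08 and 0.29 ± 0.07. PSMC1, a 19S ATPase, had the largest value (log2 fold change 0.46 ± 0.17 (SE), adjusted p = 0.0489), and PSMB3, a 20S β subunit, the smallest (log2 fold change -0.65 ± 0.20 (SE), adjusted p = 0.0144). Neither of these last was called in the model of the 8 libraries alone, and PSMC1 was not called without the 3 libraries apart (adjusted p = 0.0669). Leaving out 1 library at a time moved the list's counts between 2 (without Btz+Nelf 3 or 4 or Btz+ISRIB 1 or 4) and 7 (without Btz+Nelf 2) higher and between 0 (without Btz+Nelf 3 or Btz+ISRIB 1) and 5 (without Btz+ISRIB 3) lower.

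The metallothioneins, which bind zinc and copper, and the zinc exporter SLC30A1 were all higher with nelfinavir, 6 of 6 tested and each by more than 2-fold (median 2.20), where 1.77% of all genes were. MT1E (chromosome 16, 56659387 to 56661024, plus strand) was at 10.02, 8.38, 10.3 and 13.8 CPM in Btz+ISRIB and 70.2, 95.8, 77.01 and 59.5 CPM in Btz+Nelf (log2 fold change 2.83 ± 0.19 (SE), adjusted p = 6.21e-13). MT1G was at 5.79, 4.398, 5.05 and 4.94 CPM and 28.8, 52.5, 38.3 and 24.96 CPM (log2 fold change 2.83 ± 0.24 (SE), adjusted p = 1.22e-10). MT2A was at 215, 296, 262 and 292 CPM and 664, 906, 1004 and 680.1 CPM (log2 fold change 1.61 ± 0.12 (SE), adjusted p = 5.69e-12). No library of one group reached into the other in any of these, which for MT1E the rule that picked it had asked for. SLC30A1 was at 25.8 ± 6.86 CPM and 57.4 ± 15.4 CPM (1.15 ± 0.16), the smallest value of the list. The same 6 were called higher in Nelf minus ISRIB, MT1E by 3.18 and MT2A by 2.59 on the log2 scale. Metallothioneins are a family of near copies at 1 locus, so single members are less certain than the family.

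Cholesterol synthesis and uptake was lower with nelfinavir. Of 22 members tested, 17 were called lower and none higher (median -0.58), where 11.3% of all genes were called lower, and 16 were called lower in the model of the 8 libraries alone. HMGCS1, the synthase at the head of the pathway, was at 503, 535, 599.9 and 539 CPM in Btz+ISRIB and 327, 373, 390.4 and 371 CPM in Btz+Nelf (log2 fold change -0.57 ± 0.09 (SE), adjusted p = 4.69e-06). Every Btz+Nelf library lay below every Btz+ISRIB library. IDI1, the isomerase that makes dimethylallyl diphosphate, had the largest difference, at 102, 108, 46.3 and 118 CPM and 44.4, 49.7, 19.1 and 24.02 CPM (log2 fold change -1.45 ± 0.24 (SE), adjusted p = 2.25e-05), and its groups overlapped. PMVK, a kinase of the mevalonate pathway, stood at the other end, at 5.18 and 7.15 CPM, and was not called (log2 fold change 0.48 ± 0.28 (SE), adjusted p = 0.223). It passed the threshold without Btz+Nelf 1 (0.778) and turned to -0.171 without the 3 libraries apart. Without bortezomib, 9 of the 22 were called lower in Nelf than in ISRIB, where 7.84% of all genes were.

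Genes of the hepatocyte secretory programme were lower as well. Among 17 plasma proteins, 10 were called lower and none higher (median -0.41), 4 of them by more than 2-fold. Over all genes 11.3% were called lower, 3.17% by more than 2-fold. AFP, α-fetoprotein, was at 1885, 1874, 1351 and 2313 CPM in Btz+ISRIB and 1038, 1034, 574 and 698 CPM in Btz+Nelf (log2 fold change -1.15 ± 0.14 (SE), adjusted p = 9.15e-08). TTR, transthyretin, was at 65.9, 76.4, 74.8 and 80.97 CPM and 35.9, 24.5, 42.4 and 36.4 CPM (log2 fold change -1.09 ± 0.12 (SE), adjusted p = 2.85e-08). FGA, the fibrinogen α chain, was at 121, 114, 127 and 97.3 CPM and 48.8, 31.3, 62.1 and 66.4 CPM (log2 fold change -1.13 ± 0.14 (SE), adjusted p = 1.49e-07). In these 3 every Btz+Nelf library was below every Btz+ISRIB library. APOA2, an apolipoprotein of high-density lipoprotein, had -0.82 ± 0.08 and ALB -0.50 ± 0.12. HP, haptoglobin, had the lowest value at 4.59 and 1.51 CPM (-1.57 ± 0.39), with reads that HPR may share, and APOC3 the highest (0.04 ± 0.14, adjusted p = 0.864). Without bortezomib, 5 of the 17 were called higher and none lower in Nelf, where 9.58% of all genes were called higher. The difference between the contrasts was called for 12, all toward a lower value with bortezomib, against 7.62% of all genes. Of the 9 hepatocyte and hepatoma markers, 5 were called lower in Btz+Nelf and none higher, where 11.3% of all genes were called lower. The markers include ALB, AFP and TTR, given above among the plasma proteins, so this count is not separate from theirs.

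The 10 genes with the smallest p on the lower side, among those past 2-fold and without overlap between the groups, fell outside most of the lists. TM4SF1 (chromosome 3, 149086809 to 149095479, minus strand), a tetraspanin-like surface protein of epithelial tumours, was at 1098, 1176, 1152 and 1150 CPM in Btz+ISRIB and 270.1, 254, 285 and 263 CPM in Btz+Nelf (log2 fold change -2.09 ± 0.08 (SE), adjusted p = 8.61e-20). KLF6 (chromosome 10, 3818188 to 3827473, minus strand), a zinc finger factor, was at 400.1, 382, 403 and 434 CPM and 124, 121, 127 and 126 CPM (log2 fold change -1.702 ± 0.11 (SE), adjusted p = 5.25e-13). ITGA2 (chromosome 5, 52285170 to 52390609, plus strand), the integrin α2 chain of the collagen receptor, was at 216, 208, 202 and 214 CPM and 81.6, 70.4, 54.8 and 65.7 CPM (log2 fold change -1.63 ± 0.12 (SE), adjusted p = 6.78e-12). Without bortezomib these 3 genes were at 433 ± 43.8, 45.7 ± 8.15 and 28.7 ± 4.81 CPM in ISRIB and at 390.1 ± 14.1, 59.9 ± 13.5 and 33.9 ± 5.38 CPM in Nelf, and their contrasts differed by -1.94, -2.09 and -1.86 on the log2 scale (adjusted p = 7.23e-15, 2.72e-11 and 2.42e-09). Bortezomib alone had 472, 238 and 126 CPM.

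ID2 (chromosome 2, 8818975 to 8824591, plus strand), an inhibitor of basic helix-loop-helix factors, was at 243, 247, 289.7 and 221 CPM and 80.3, 65.4, 104 and 98.2 CPM (log2 fold change -1.52 ± 0.11 (SE), adjusted p = 8.95e-13). NFKBIA, the inhibitor of NF-κB, was at 184, 192, 203 and 152 CPM and 71.7, 81.8, 88.6 and 79.2 CPM (log2 fold change -1.19 ± 0.10 (SE), adjusted p = 5.26e-11). TFPI, the inhibitor of tissue factor, was at 279.6, 253, 239.8 and 271 CPM and 118, 118, 106 and 113 CPM (log2 fold change -1.198 ± 0.09 (SE), adjusted p = 2.18e-11). None of the 3 had overlapping groups, as the rule that picked them had asked. ACSL5, an acyl-CoA synthetase, was at 146, 171, 177 and 164 CPM and 58.3, 62.9, 58.7 and 56.7 CPM (log2 fold change -1.48 ± 0.09 (SE), adjusted p = 6.41e-14), and C19orf77, a small membrane protein gene, at 582 and 279 CPM (-1.06 ± 0.09). SAA4, a constitutive serum amyloid A, was at 206, 218, 232 and 236 CPM and 75.5, 54.5, 67.98 and 72.3 CPM (log2 fold change -1.72 ± 0.10 (SE), adjusted p = 7.57e-15), and shares exons with the readthrough gene SAA2-SAA4. The entry that the count table names UGT1A8 was at 40.3, 49.6, 37.1 and 45.9 CPM and 7.82, 7.72, 7.07 and 7.695 CPM (log2 fold change -2.51 ± 0.15 (SE), adjusted p = 2.77e-14). In GENCODE its exons overlap those of a gene listed separately as UGT1A8. The entry is thus another UGT1A gene, and it keeps the name of the count table here. It shares its last exons with the other UGT1A genes, so that its 3′ reads may come from any of them.

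Immediate early genes split. Of 14 tested, 6 were called higher and 2 lower, where 13.2% and 11.3% of all genes were. IER5 (chromosome 1, 181057836 to 181062036, plus strand), a regulator of HSF1 and of cell growth, was at 35.6, 28.9, 38.7 and 22.5 CPM in Btz+ISRIB and 98.7, 127, 162 and 100 CPM in Btz+Nelf (log2 fold change 1.95 ± 0.16 (SE), adjusted p = 8.54e-11), and DUSP6, a phosphatase of ERK, had 1.197 ± 0.12. JUNB had -0.72 ± 0.18, and KLF6, described above, was the other called lower. The JUNB call was lost without the 3 libraries apart (-0.552, adjusted p = 0.0941). Of 12 p53 targets, 2 were called higher and 1 lower, near the shares of all genes (13.2% and 11.3%): TP53INP1, an autophagy protein, had 0.89 ± 0.18, the RNA-binding protein gene ZMAT3 0.44 ± 0.12 and MDM2, the ligase that degrades p53, -0.32 ± 0.08. Without the 3 libraries apart ZMAT3 and MDM2 were not called (adjusted p = 0.195 and 0.108). CDKN1A (p21) was not called (log2 fold change -0.25 ± 0.12 (SE), adjusted p = 0.111), nor was BTG2, the lowest (-0.43 ± 0.35). Of 16 NRF2 targets, 2 were called higher and 4 lower, where 13.2% and 11.3% of all genes were. GCLM, the regulatory subunit of glutathione synthesis, at 0.97 ± 0.13, and the reductase AKR1B10, at -0.81 ± 0.20, were the ends of that list. The 4 lower calls were 2 without the 3 libraries apart, 1 without Btz+ISRIB 4 and 2 without Btz+Nelf 1, 3 or 4 or Btz+ISRIB 2 or 3.

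DNA replication genes differed less between nelfinavir and ISRIB with bortezomib than without it. Of 23 members, 22 were called lower in Nelf than in ISRIB (median log2 fold change -1.205), where 7.84% of all genes were. With bortezomib 4 were called higher and 4 lower (median -0.015), where 13.2% and 11.3% of all genes were. The difference itself was called in 20, all toward a higher value with bortezomib, against 7.4% of all genes. MCM4, a subunit of the replicative helicase, was at 123, 146, 146 and 131 CPM in ISRIB and 43, 48.7, 44.5 and 41.7 CPM in Nelf (log2 fold change -1.62 ± 0.10 (SE), adjusted p = 5.09e-15). With bortezomib it was at 91.5, 84.4, 83.4 and 94.05 CPM and 106, 85.4, 91.2 and 83.5 CPM (log2 fold change 0.05 ± 0.10 (SE), adjusted p = 0.736), and these groups overlapped. CDC6, which loads that helicase, was at 66.7, 63.9, 66.8 and 72.8 and 27, 23.1, 21.02 and 27.5 CPM without bortezomib and at 87.3, 99.05, 93.1 and 91.3 and 126, 142, 132 and 121 CPM with it, so that its direction turned (log2 fold change -1.45 ± 0.10 (SE), adjusted p = 1.91e-13, and log2 fold change 0.49 ± 0.09 (SE), adjusted p = 1.89e-04). PCNA, the sliding clamp, and RRM2, of ribonucleotide reductase, were lower with bortezomib as well (-0.64 ± 0.15 and -0.32 ± 0.08), although RRM2 was not called without the 3 libraries apart (adjusted p = 0.0648), and the 4 lower calls of the list were then 2. GINS3 and GINS1, of the helicase cofactor GINS, were the ends of the list at 0.88 ± 0.21 and -0.82 ± 0.18. Of 17 mitotic genes, 1 was called higher with bortezomib, CCNB2 (log2 fold change 0.38 ± 0.12 (SE), adjusted p = 0.0151), which was not called in the model of the 8 libraries alone or without the 3 libraries apart (adjusted p = 0.146 and 0.156), and none lower, and KIF11 had the lowest value (-0.23 ± 0.20). ANKRD1, a YAP target of stressed cells, turned as well: it was at 18.5, 17.97, 19.8 and 23.4 CPM in ISRIB and 4.06, 2.19, 4.802 and 4.03 CPM in Nelf, and at 41.6, 42.1, 47.4 and 43.9 CPM in Btz+ISRIB and 85.4, 82.9, 135 and 91.8 CPM in Btz+Nelf (log2 fold change 1.17 ± 0.15 (SE), adjusted p = 5.02e-07), a difference between contrasts of 3.57 ± 0.25 (SE), adjusted p = 1.18e-12.

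Mitochondrially encoded genes took 27.2% ± 2.26 of the counts in Btz+Nelf and 36.1% ± 3.13 in Btz+ISRIB (SD, n = 4 each). The libraries ran from 24.9% to 29.6% and from 32.6% to 40.2%, without overlap (p = 0.0286 in an exact, two-sided permutation test, where 4 against 4 can give no smaller value). Leaving out any 1 library gave differences between -10.1 and -7.61 percentage points. Of the 13 protein genes of the mitochondrial genome, 10 were called lower and 2 higher, where 11.3% and 13.2% of all genes were. MT-CO3, a subunit of cytochrome oxidase, was at 48470, 49310, 44570 and 55740 CPM in Btz+ISRIB and 33350, 33610, 29660 and 31090 CPM in Btz+Nelf (log2 fold change -0.63 ± 0.09 (SE), adjusted p = 2.80e-06). Its groups did not overlap. The 10 lower calls were 6 without the 3 libraries apart, 4 without Btz+Nelf 4 or without Btz+ISRIB 4, 5 without Btz+Nelf 3, 6 without Btz+Nelf 1, and 7 or 8 without any other 1 library. Every run with 1 library left out called fewer genes lower over all genes, so these counts are not credited to single libraries. MT-ND6 (chromosome M, 14149 to 14673, minus strand), the 1 protein gene on the light strand, went the other way, at 252, 281, 372 and 222 CPM and 748, 1055, 1395 and 1032 CPM (log2 fold change 1.91 ± 0.17 (SE), adjusted p = 1.60e-10). Its libraries did not overlap, and MT-ND4L, on the other strand, was also higher (0.66 ± 0.10). The strand setting of the counting is not given, so transcripts of the opposite strand cannot be told apart from those of MT-ND6 and MT-ND4L. Without bortezomib MT-ND6 was at 255 ± 50.9 CPM in ISRIB and 508 ± 83.9 CPM in Nelf (log2 fold change 0.99 ± 0.16 (SE), adjusted p = 2.12e-05).

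Cytosolic ribosomal proteins were higher in small steps. Of 75 members, 48 were called higher and none lower, with a median of 0.29, and none passed 2-fold. Of all genes, 13.2% were called higher. The count was 30 in the model of the 8 libraries alone and 42 without the 3 libraries apart. The largest value was that of RPS12, at 3040, 3033, 3409 and 2642 CPM and 4174, 3992, 5487 and 4629 CPM (log2 fold change 0.59 ± 0.10 (SE), adjusted p = 2.24e-05), with a near copy that may share reads. The mitochondrial share of the counts, given above, was lower in the same libraries. With the mitochondrially encoded genes left out before scaling, 48 members were called higher, as before. TMM factors already correct for a few genes that take many of the counts, so this run could change little. Over all genes, its log2 fold changes moved by a median of 0.002. Whether the ribosomal values depend on the mitochondrial share was not tested.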

How the data were processed

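HepG2 cells were profiled by 3′ mRNA sequencing (QuantSeq, forward kit, 80 bp single-end reads), which counts reads near the end of a transcript. The authors trimmed reads with cutadapt 2.8, used STAR within an nf-core workflow to align them to hg19, and deposited raw counts per Ensembl gene (GRCh37). Which program counted the reads, and with what strand setting, is not given in the sources used here. Replicates were not pooled.

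All 24 libraries were fitted in 1 model with a coefficient per condition, in R 4.3.3 with edgeR 4.0.16 (filterByExpr with a minimum count of 5 and a minimum total of 25, TMM factors, quasi-likelihood F-test). P-values were adjusted over the 12685 genes tested by the Benjamini-Hochberg method, the threshold was 0.05, and log2 fold changes carry a prior count of 0.125. The standard error is the size of the log2 fold change divided by the root of F. Every adjusted p in the text is from edgeR unless another tool is named. The share of mitochondrial counts was compared by an exact permutation test. Genes were named by rule: the 10 of smallest p per direction with over 2-fold change and no overlap between groups, members of gene lists including each list's ends, genes the study names for the co-treatments, and the 5 of smallest p per direction of the difference between contrasts. The members and lists were chosen with earlier results of these data known, and list members are named as examples on that footing. Lists are described by counts and medians, with no set test. Some list members are counted but not reported here by name. Near copies of the last 500 transcript bases were searched with BLAST 2.17.0. Gene positions are from GENCODE on GRCh37 and promoter windows from RefSeq on GRCh38.p14.

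Alternatives were other scaling factors, filters, tests (DESeq2 1.42.0), models, a replicate block, thinned counts and each library left out. A further 2, the 3 libraries apart left out and the axis on which they lie as a covariate, were chosen after seeing the data. The scripts' tests were tried on simulated counts. Same-numbered libraries of Btz+Nelf and Btz+ISRIB deviated together in 3 of 4 numbers at a correlation above 0.1, and 5 of 12 pairs with unlike numbers did so too, so the numbers were not taken as pairs.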

Additional observations from a re-analysis of the deposited data

Results flagged for a closer look

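Of 280 groups of 4 libraries looked at (each named gene, and library values such as total counts and mitochondrial share, in Btz+Nelf and in Btz+ISRIB), 20 had 1 library whose gap to the nearest other, as a share of the group's range, was above Dixon's 95% critical value for 4 samples. All 20 were groups of a named gene. Chance gives about 1 in 20 groups. In Btz+ISRIB 3, BAG3 was lowest with a share of 0.911, CEBPB was lowest with a share of 0.855, HERPUD1 was lowest with a share of 0.865, KIF11 was lowest with a share of 0.842, MT-CO1 was lowest with a share of 0.877 and PSAT1 was lowest with a share of 0.885. In Btz+ISRIB 4, HSP90AA1 was lowest with a share of 0.888, HSPB1 was lowest with a share of 0.874, PSMD14 was lowest with a share of 0.896 and TRIB1 was lowest with a share of 0.883. In Btz+Nelf 3, ATF6 was lowest with a share of 0.890, HSP90AA1 was highest with a share of 0.849, TRIB3 was highest with a share of 0.853 and UGT1A8 was lowest with a share of 0.833. In Btz+Nelf 2, BMF was highest with a share of 0.892 and VLDLR was highest with a share of 0.843. In Btz+ISRIB 2, GARS was highest with a share of 0.938 and KDELR3 was highest with a share of 0.950. In Btz+Nelf 1, APOC3 was lowest with a share of 0.875. In Btz+Nelf 4, XBP1 was lowest with a share of 0.854. Btz+ISRIB 3, which gave 6 of the 20, is 1 of the 3 libraries that stood apart on the within-condition axis.

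Of 38 genes whose contrast with bortezomib (Btz+Nelf minus Btz+ISRIB) was set against that without (Nelf minus ISRIB), 27 differed between the contrasts (edgeR, adjusted p below 0.05 over all genes). The difference of the log2 fold changes was toward a higher value with bortezomib in 8 genes: 3.5698 for ANKRD1, 2.1933 for HSPH1, 2.0041 for CHORDC1, 1.9432 for CDC6, 1.9312 for DNAJB1, 1.198 for BCL2L11, 1.0727 for ITPR1 and 0.7251 for ZFAND2A. It was toward a lower value with bortezomib in 19 genes: -3.3262 for SLC7A11, -2.7972 for ASNS, -2.2306 for DDIT4, -2.1088 for INHBE, -2.0934 for KLF6, -1.9417 for TM4SF1, -1.8645 for ITGA2, -1.848 for UGT1A8, -1.7947 for CEBPB, -1.5007 for DDIT3, -1.202 for ACSL5, -1.0852 for ID2, -1.0599 for TRIB3, -0.9716 for SAA4, -0.9469 for C19orf77, -0.9341 for ATF4, -0.6388 for NFKBIA, -0.5871 for STC2 and -0.565 for TFPI. Since a part of these genes was chosen for a large difference between the contrasts, their number is a description.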

How the results depend on the processing

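The model of the groups compared alone called 985 genes higher and 755 lower with bortezomib (237 of them lower by more than 2-fold), and 1608 lower in Nelf minus ISRIB. Without the 3 libraries apart, 925 genes were lower with bortezomib. A test against a 2-fold change itself (glmTreat) called 28 higher and 20 lower with bortezomib, and 98 higher and 24 lower without it. The replicate number as a block gave 3190 genes called with bortezomib, 3032 of them among the 3098, and the block was no pairing by design. Leaving out 1 library at a time gave 1557 to 1953 genes higher and 1041 to 1282 lower, 221 to 278 and 312 to 414 by more than 2-fold. The 1429 lower genes of the main model, 11.3% of those tested, lay above this whole range. Each of these runs filtered and scaled the genes anew. Log2 fold changes lay above those of the main model by a median of 0.035 to 0.056, and 59.6% to 61.2% of calls were higher. Lower calls of lists that were lost in these runs thus cannot be credited to the library left out alone. For the difference between contrasts, leaving out 1 library gave 932 to 1174 higher and 755 to 844 lower, 235 to 290 and 331 to 404 by more than 2-fold. The difference in mitochondrial share ran from -10.14 to -7.612 percentage points, that in total counts from 219900 to 485100 and that in genes detected from -128.2 to -24.92. DESeq2 called 3361 genes. Upper-quartile factors lowered the share of calls that were higher from 53.9% to 48%, and no filter raised it to 60.1%.

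Of 135 named genes, 101 kept their direction and call in every setting run. All 20 chosen by smallest p were among them, which their choice from these same libraries made likely. No called gene among the 135 turned its sign. Genes not called there that did so were ALDH18A1 (0.097 without the 3 libraries apart, -0.329 to 0.003 without single libraries), SLC36A1 (-0.276 to 0.05), RARS (-0.175 to 0.026) and HSPA8 (0.022 without the 3 libraries, -0.346 to 0.022). Without the 3 libraries the log2 fold change was also 0.022 for SEC61G, -0.171 for PMVK and -0.026 for APOC3. The cause was not tested. Genes not called in the report but called in at least 1 other setting include PPP1R15B, EIF2AK3, PSAT1, HSPE1, CDKN1A, ATF6, ATF6B, EIF2B1 and SEC61G. HSPA8 and SEC61G passed the threshold on the lower side with the axis as a covariate (adjusted p = 0.0447 and 0.0166). On counts thinned to the smallest library, 3023 genes were called with bortezomib.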
